A study of Mus musculus with 10 samples.

Results

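Zinc finger genes with the highest numbers in the mouse naming series were followed across 5 lines of mouse embryonic stem cells (mESCs). Their members were chosen by name alone, as every gene whose symbol is Zfp followed by a number of 3 digits that begins with 7, 8 or 9, together with C030039L03Rik, an older symbol of Zfp607b. The rule took 96 of the 20325 genes in the table. PolyA RNA-Seq was performed on 5 lines with 2 biological replicates each. Daxx-/- mESCs (strain 129/SvEv) lack the histone chaperone DAXX, and Daxx-/-;WT mESCs are these cells with a transgene of WT mouse DAXX. H3.3 KO mESCs (mixed 129 x C57BL/6J background) lack the histone variant H3.3, and were studied without a transgene, with WT H3.3 (the line H3.3 KO;WT), or with L126A-I130A H3.3, a mutant made to bind DAXX without entering nucleosomes. The transgenes carry FLAG (DAXX) or FLAG-HA (H3.3) tags and were delivered by lentivirus under an EF1 promoter with puromycin selection. All lines were grown without feeder cells in 2i + LIF, in which inhibitors of GSK3 and MEK and the cytokine LIF hold the cells in a naive state. The KO lines carry no transgene by their labels, so that transduction and selection came together with each transgene. None of the 10 libraries is of a line with neither gene deleted, and whether a line is a single clone is not given in the sources used here.

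Many genes of this naming series encode KRAB zinc finger proteins. Each C2H2 finger contacts a few bases of DNA, and a row of fingers gives a protein its target sequence, often within an endogenous retrovirus (ERV). The KRAB box binds KAP1 (Trim28), which brings in the histone methyltransferase SETDB1, so that H3K9me3 is laid down and the element is silenced in mESCs. The genes arose by repeated local duplication and stand in clusters of close copies. Reads that fit several copies are divided among them by RSEM, so values of close paralogs are less certain than those of single-copy genes.

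Positions were looked up by symbol in the GENCODE M21 annotation of GRCm38, since the table holds none and was made on mm9. Of the 96 members, 94 matched by symbol and 2 by a synonym, C030039L03Rik as Zfp607b and Zfp828 as Champ1, a protein of kinetochore-microtubule attachment. They lie on 16 chromosomes, with 20 members on chromosome 7, 18 on chromosome 17, 15 on chromosome 8 and 10 on chromosome 13. A KRAB box was found in the annotated proteins of 72 members and not in 24. KRAB members had a median of 11 C2H2 fingers (range 0 to 23), against 5 (range 0 to 20) in the others. Joining members whose starts lie no more than 1 Mb apart gave 12 clusters of 3 or more, which hold 57 members, 51 of them with a KRAB box. The largest cluster holds 10 KRAB members within 1.3 Mb of chromosome 17, from Zfp948 to Zfp945.

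C030039L03Rik and Zfp932 were the members that passed an adjusted p of 0.05 with the DAXX transgene, and their promoters are shown for that reason. Both encode KRAB proteins, with 17 and 15 fingers. ZFP932 is known to bind ERVs of the ERVK class and to silence genes near them. The sequences are 300 bases each, from 250 before to 50 after the annotated start, taken from RefSeq on GRCm38.p6 and written 5′ to 3′ on the plus strand, which is the coding strand of both genes. Capitals mark CG dinucleotides. The RefSeq start of Zfp932 lies 11 bases before the GENCODE start of the gene, but that of C030039L03Rik lies 14.7 kb before it, so its sequence is that of the RefSeq start alone.
C030039L03Rik (chr7:27674411-27674710): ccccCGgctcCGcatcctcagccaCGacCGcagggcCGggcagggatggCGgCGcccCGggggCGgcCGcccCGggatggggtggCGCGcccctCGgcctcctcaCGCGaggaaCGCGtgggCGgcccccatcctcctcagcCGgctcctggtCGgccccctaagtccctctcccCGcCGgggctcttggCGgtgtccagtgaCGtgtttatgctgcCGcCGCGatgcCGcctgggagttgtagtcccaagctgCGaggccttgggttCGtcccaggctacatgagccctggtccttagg
Zfp932 (chr5:109996260-109996559): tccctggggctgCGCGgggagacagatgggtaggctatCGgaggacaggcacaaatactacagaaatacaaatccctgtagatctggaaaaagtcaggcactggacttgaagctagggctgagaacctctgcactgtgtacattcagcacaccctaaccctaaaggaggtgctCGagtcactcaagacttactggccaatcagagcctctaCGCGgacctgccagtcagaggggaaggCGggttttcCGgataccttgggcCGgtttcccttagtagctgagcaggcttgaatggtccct

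The promoter of C030039L03Rik holds 31 CG dinucleotides and that of Zfp932 holds 9, beside a median of 7 over all 32851 RefSeq promoters of this length. Promoters were found for 83 members, several with more than 1 start. Their 99 promoters held a median of 11 CG dinucleotides, from 2 in Zfp735 to 54 in Zfp740. The letters CCAAT on either strand occurred in 60.6% of these promoters and in 37.4% of all promoters. TATAAA occurred in 7.1% and 13.6%, and CCGGAAG in 15.2% and 8.9%. Of the sequences shown, Zfp932 holds CCAAT, and none of the searched letters were found in that of C030039L03Rik. Such matches are descriptions of the letters in the window.

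Library totals lay between 15463625 and 21396585 expected counts. Of 8 fixed pluripotency markers, 7 were in the table, with a summed level between 4995 and 7226 CPM, counts scaled to a common library total. H3f3a, which encodes H3.3, was counted at 2.95 to 11.4 CPM in the 6 libraries of H3.3 KO origin and at 390 to 498 CPM in the 4 of Daxx-/- origin. H3f3b, the other H3.3 gene, was still counted at 144 to 749 CPM in the former. Daxx was counted at 74.4 and 77.3 CPM in Daxx-/- mESCs, at 195 and 208 CPM with the transgene, and at 61.5 to 96.7 CPM in the H3.3 KO lines. Counts over a whole gene can include transcripts of a disrupted allele, so those of Daxx and H3f3b do not check the knockouts. Replicate 2 of Daxx-/- stood apart. In bulk RNA, fewer cells of a type and less RNA per cell cannot be told apart. The members summed to 2036 CPM there and to between 2369 and 2749 CPM in the other 9 libraries. The medians for the DAXX and origin comparisons are given below with and without it.

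Of the 96 members, 90 had at least 1 CPM in at least 2 libraries and were tested. The 6 others were Zfp735, Zfp831, Zfp872, Zfp879, Zfp957 and Zfp964, with means of at most 0.556 CPM. Zfp703, a zinc finger repressor without a KRAB box, stood just inside this filter with 0.388 to 1.94 CPM, and Zfp879 fell outside it with 0.126 to 1.42 CPM. Among the tested members, 12 had a mean of at least 50 CPM, 47 lay between 10 and 50 CPM, and 31 were below 10 CPM. The 6 with the highest mean were Zfp706 (280 CPM), Zfp710 (159 CPM), Zfp960 (103 CPM), Zfp704 (97.7 CPM), Zfp932 (95.6 CPM) and Zfp808 (92.5 CPM). Zfp706, a small protein known to influence the exit of mESCs from self-renewal, ranged from 202 to 362 CPM over the 10 libraries. Divided by the length of the transcript with the longest coding region, the highest median levels were those of Zfp740 (86.8 CPM per kb), Zfp706 (65.7 CPM per kb), Zfp932 (46.1 CPM per kb), Zfp960 (40.2 CPM per kb) and Zfp808 (39.8 CPM per kb). KRAB members had a median level of 4.36 CPM per kb and members without a KRAB box 3.55 CPM per kb. Zfp960 and Zfp808, and the KRAB and other members as groups, stood close together on this scale. The order is rough, because transcripts of a gene differ in length.

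To find out how the members respond to DAXX, Daxx-/-;WT was compared with Daxx-/- mESCs. C030039L03Rik rose, and most other members stood slightly higher without passing the test. In CPM, C030039L03Rik measured 10.5 and 7.87 in Daxx-/- mESCs and 38 and 40.3 with DAXX. All 6 libraries of H3.3 KO origin lay lower still, between 3.67 and 6.7 CPM. The groups with and without DAXX did not overlap, and the fitted change was 4.24-fold (log2 fold change 2.08, SE 0.26, edgeR's quasi-likelihood test, adjusted p = 0.0203).
C030039L03Rik was the sole member called, which took both an adjusted p below 0.05 and a 2-fold difference. That is 1 of 90 members, or 1.11%, near the 1.08% of all 13201 genes tested. Zfp932 also passed the adjusted p, as did 1.41% of all genes, but changed by less than 2-fold. It measured 75.4 and 71 CPM in Daxx-/- mESCs and 117 and 125 CPM with DAXX, with no overlap (log2 fold change 0.72, SE 0.14, adjusted p = 0.0448 in the same fit). The call of C030039L03Rik ended when either Daxx-/-;WT library was left out (adjusted p = 0.189 without replicate 1 and 0.0762 without replicate 2), with its log2 fold change at 2.08 in both cases, and when the 4 libraries were fitted alone (adjusted p = 0.125). Without replicate 2 of Daxx-/- it was called at a log2 fold change of 1.83 (adjusted p = 0.0378), and Zfp932 stood at 0.61 (adjusted p = 0.119).

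**Figure D1:**
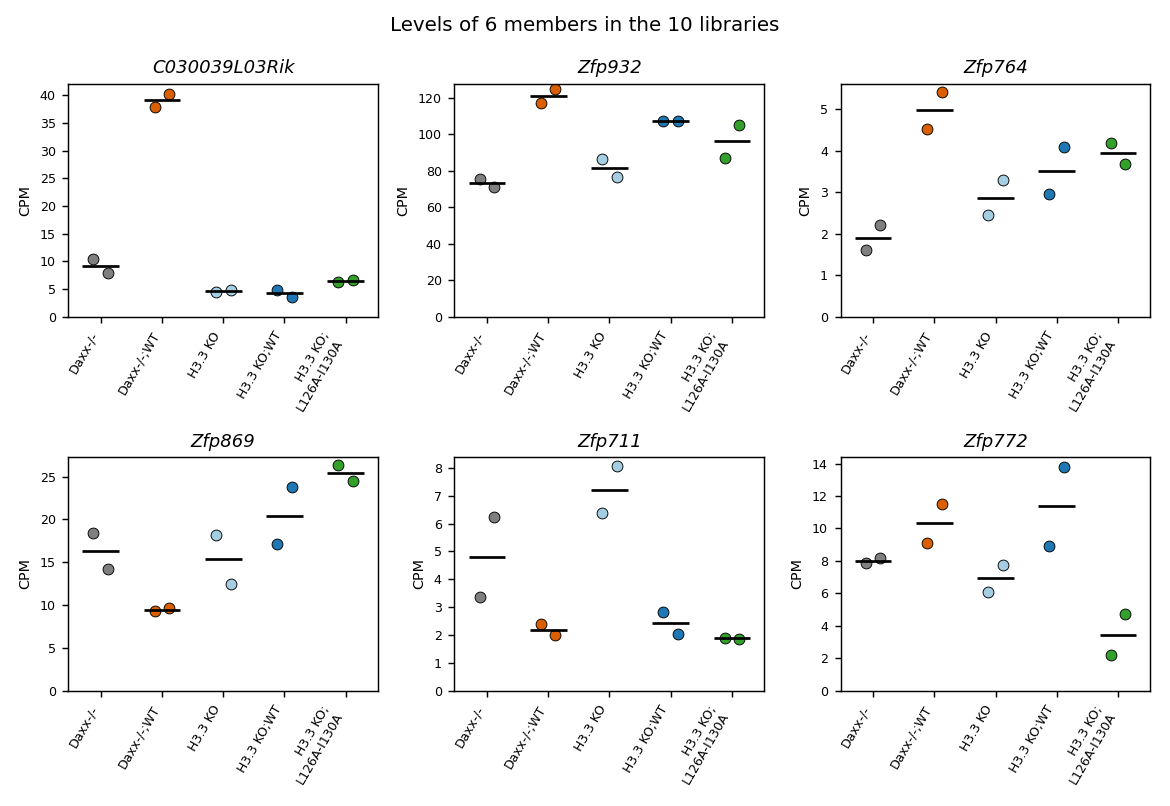
Levels of C030039L03Rik, Zfp932, Zfp764, Zfp869, Zfp711 and Zfp772 in CPM (vertical axes, from 0) in the 5 lines. Points are libraries and bars the mean of the 2 libraries of a line. C030039L03Rik stands at 38 and 40.3 CPM in the DAXX-rescued line and at no more than 10.5 CPM in any other library.

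The other large differences with DAXX did not pass edgeR's adjusted p, although DESeq2 also called Zfp759, Zfp760 and Zfp764. DESeq2 called 531 of all 13201 genes in this comparison, where edgeR called 143. Zfp764, a KRAB gene of chromosome 7, measured 1.61 and 2.21 CPM without and 4.53 and 5.43 CPM with DAXX (log2 fold change 1.39, SE 0.35, adjusted p = 0.0789). Zfp869 measured 18.4 and 14.2 CPM without and 9.3 and 9.62 CPM with DAXX (log2 fold change -0.79, SE 0.27, adjusted p = 0.143). Zfp711, an X-linked gene without a KRAB box whose human counterpart is linked to intellectual disability, measured 3.37 and 6.23 CPM without and 2.38 and 1.98 CPM with DAXX (log2 fold change -1.11, SE 0.39, adjusted p = 0.152). In each of these 3 genes the libraries with DAXX lay wholly above or wholly below those without it.
Among highly expressed members, Zfp704 measured 90.9 and 57.1 CPM without and 140 and 150 CPM with DAXX (log2 fold change 0.96, SE 0.23, adjusted p = 0.0715). Zfp706, Zfp710, Zfp960 and Zfp808 had log2 fold changes between -0.11 and 0.26 and did not pass.

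Across the members, the median log2 fold change with DAXX was 0.303, beside -0.024 over all genes tested, and 72 of 90 were above 0. Libraries of Daxx-/-;WT lay wholly above those of Daxx-/- for 50 members, where 24.6% of all genes did so, and wholly below for 5, beside 23.1% of all genes. At an unadjusted p under 0.05, 26 members were higher and 3 lower, in all 29 of 90 beside 21.8% of all genes. KRAB members had a median of 0.348, with 58 of 68 above 0, and the 22 members without a KRAB box a median of 0.106.
The lean was also present in other zinc finger genes. Among 316 tested genes of other Zfp, Zkscan, Zscan, Zik, Zim and Zbtb symbols, the median was 0.236, 226 were above 0 and 1 was called, in the lower direction. Whether the lists differ was not tested.

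This lean moved with single libraries. In replicate 2 of Daxx-/-, 42 of 90 members had the lowest of their 10 values, or 46.7%, where 19.6% of all genes did so. Between the Daxx-/- replicates 9 members differed by more than 2-fold, against 0 or 1 in each other line.
Zfp936, a KRAB gene of chromosome 7, was the widest of the tested members with 81.3 and 21.3 CPM, and lay at 124 and 106 CPM with DAXX. Zfp819, a KRAB gene expressed in pluripotent cells, measured 36.6 and 11.2 CPM without and 33.2 and 25.6 CPM with DAXX. Zfp809, which recognises the primer binding site of murine leukaemia virus and silences it in mESCs, measured 19.3 and 7.13 CPM without and 15.8 and 17.9 CPM with DAXX.
For Zfp819 and Zfp809 the libraries with DAXX lay between the pair without it. Without replicate 2 of Daxx-/- their log2 fold changes were -0.38 and -0.26, and without replicate 1 they were 1.47 and 1.3. The median over the members was 0.167 without replicate 2, with 61 of 90 above 0, and 0.517 without replicate 1. At an unadjusted p under 0.05 there were 16 members without replicate 2, or 17.8%, near the 15.9% of all genes. Libraries with DAXX then lay wholly above for 54 members (60%) and wholly below for 15 (16.7%), beside 42.3% and 32.5% of all genes. Without replicate 1, 11 members were called (12.2%), and 8.17% of all genes.
Markers of other cell types also differed between these libraries. The 4 fibroblast markers summed to 25.6 and 41.8 CPM in Daxx-/- and 11.6 and 17.4 CPM with DAXX, most of it Thy1, with Col1a2 and Postn at or near 0. The 4 primitive endoderm markers summed to 4.1 and 13 CPM in Daxx-/- and 2.9 and 4.3 CPM with DAXX. Neural markers summed to 114 and 43.6 CPM in Daxx-/- and 206.3 and 92.4 CPM with DAXX. Nearly all of this was Tubb3 (111.36 and 39.75 CPM, and 202.42 and 87.62 CPM), with Pax6 and Sox1 at no more than 4.19 CPM. Trophoblast markers summed to 18.1 and 24.1 CPM in Daxx-/- and 19.5 and 26.6 CPM with DAXX. Between the Daxx-/- replicates Eomes went from 16.66 to 12.12 CPM and Krt7 from 1.25 to 11.89 CPM. Their part in the members' values was not tested.

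**Figure D2:**
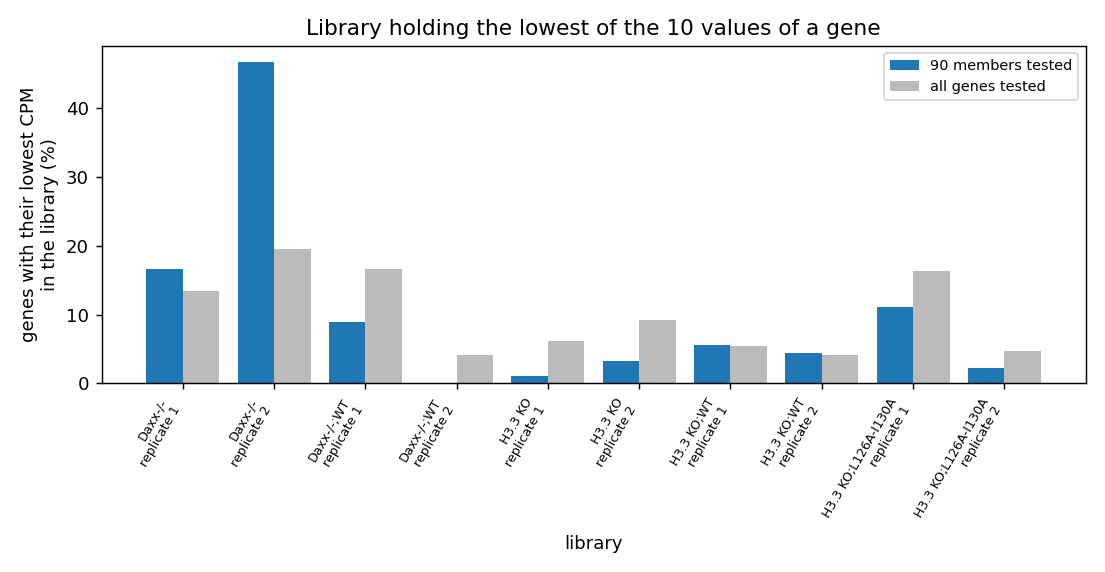
Share of genes (vertical axis, %) whose lowest CPM of the 10 libraries falls in the library named on the horizontal axis, for the 90 members tested (blue) and all 13201 genes tested (grey). The blue bar of Daxx-/- replicate 2 reaches 46.7%, where the grey bar is at 19.6%.

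The next comparison asks how the members respond to WT H3.3 in H3.3 KO mESCs. None of the 90 was called, beside 0.25% of all genes tested, and 7 had an unadjusted p under 0.05, beside 13.3% of all genes. DESeq2 called Zfp711, and limma on log2(CPM + 1) or log2(CPM + 0.1) called none. Over all 13201 genes DESeq2 called 209 and the limma fits 55 and 36, where edgeR called 33.
Zfp711 had the largest difference. It measured 6.37 and 8.07 CPM in H3.3 KO and 2.83 and 2.05 CPM with WT H3.3, with no overlap (log2 fold change -1.53, SE 0.39, edgeR's adjusted p = 0.174). Zfp703 measured 1.46 and 1.94 CPM without and 0.692 and 1.08 CPM with WT H3.3 (log2 fold change -0.9, SE 0.52, adjusted p = 0.515), near the limit of the filter.
The largest non-overlapping rises were those of Zfp772 (log2 fold change 0.75, SE 0.35, adjusted p = 0.404) and Zfp943 (0.73, SE 0.31, adjusted p = 0.342), both KRAB genes. Libraries with WT H3.3 lay wholly above for 26 members and wholly below for 26, beside 25.9% and 29.7% of all genes. The members' median was 0.044, beside 0.016 over all genes tested. KRAB members had a median of 0.103 and the 22 others one of -0.151, with WT H3.3 wholly below for 13 of these 22.

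With L126A-I130A H3.3 in place of WT H3.3, again 0 of 90 members were called against H3.3 KO, beside 0.788% of all genes. At an unadjusted p under 0.05 there were 15, beside 16.9% of all genes. DESeq2 and both limma fits called Zfp711. Over all 13201 genes they called 444, 173 and 180, where edgeR called 104.
Zfp711 measured 1.88 and 1.87 CPM with the mutant, below both WT H3.3 libraries as well (log2 fold change -1.89 against H3.3 KO, SE 0.4, edgeR's adjusted p = 0.0627). Leaving out either Daxx-/- library, which belongs to neither group, brought its adjusted p to 0.037 and thus a call. Leaving out H3.3 KO replicate 2 brought it to 0.34.
Zfp931, a KRAB gene of chromosome 2, measured 31.4 and 25.1 CPM in H3.3 KO and 51.9 and 53.9 CPM with the mutant (log2 fold change 0.96, SE 0.22, adjusted p = 0.0746). Zfp869 measured 18.2 and 12.5 CPM without and 26.4 and 24.5 CPM with it (log2 fold change 0.78, SE 0.27, adjusted p = 0.188). Zfp703 measured 0.388 and 0.738 CPM with the mutant (log2 fold change -1.53, SE 0.54, adjusted p = 0.202). Neither library of either line crossed over in these genes.
Libraries with the mutant lay wholly above for 34 members and wholly below for 12, where 22% and 27% of all genes did so. The median was 0.174, beside 0.03 over all genes, and 63 of 90 were above 0. The 316 other zinc finger genes leaned the same way, with a median of 0.129 and 211 above 0. Libraries with the mutant lay wholly above for 29.4% of them and wholly below for 16.1%. In replicate 2 of the mutant line, 22 of 90 members had the highest of their 10 values (24.4%, beside 9.48% of all genes). Without that library the members' median was 0.135, beside 0.01 over all genes, and without replicate 1 it was 0.228. The WT and L126A-I130A comparisons share the H3.3 KO libraries.

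Set directly against WT H3.3, the mutant called 0 of 90 members, beside 0.515% of all genes, and 9 had an unadjusted p under 0.05, beside 12.3% of all genes. DESeq2 called Zfp772 here, and neither limma fit called any member. Over all 13201 genes DESeq2 called 323, where edgeR called 68.
Zfp772 measured 8.93 and 13.8 CPM with WT H3.3 and 2.2 and 4.71 CPM with the mutant (log2 fold change -1.7, SE 0.37, edgeR's adjusted p = 0.0966). Its neighbour Zfp773, also a KRAB gene, measured 3.96 and 5.78 CPM with WT H3.3 and 1.75 and 3.63 CPM with the mutant (log2 fold change -0.84, SE 0.41, adjusted p = 0.459). Both genes were lower with the mutant in both libraries.
Zfp760 measured 11.5 and 11.6 CPM with WT H3.3 and 16.9 and 26.7 CPM with the mutant (log2 fold change 0.93, SE 0.26, adjusted p = 0.171). Zfp948, in the same cluster of chromosome 17, measured 14.7 and 16.6 CPM and 29.7 and 26.1 CPM (log2 fold change 0.86, SE 0.2, adjusted p = 0.122). The mutant's libraries lay wholly above for 29 members and wholly below for 15, where 21.4% and 24.2% of all genes did so. The members' median was 0.055.

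**Figure D3:**
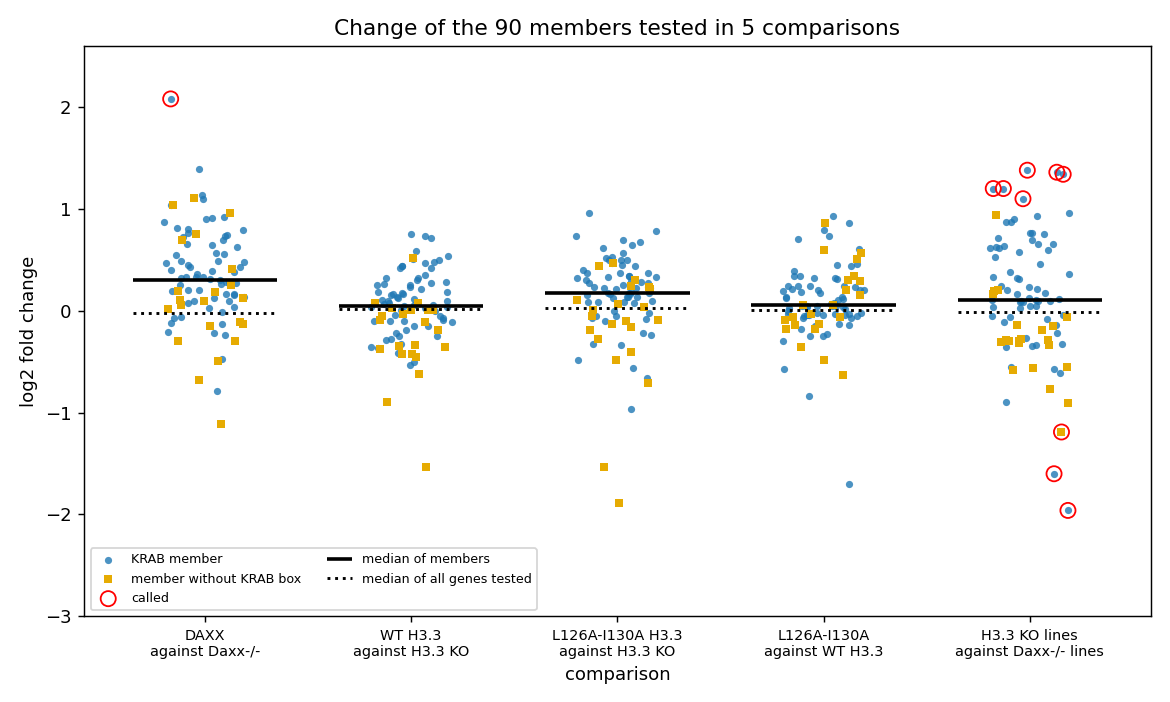
Log2 fold change (vertical axis) of each of the 90 members tested in the 5 comparisons (horizontal axis). Blue circles are KRAB members, yellow squares members without a KRAB box, and red rings mark calls. Solid bars are medians of the members and dotted bars medians of all genes tested. The solid bar stands at 0.303 with DAXX and at 0.044 with WT H3.3.

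Whether the change with DAXX differed from that with H3.3 was tested as a difference of log2 fold changes. For C030039L03Rik it was 2.19 against WT H3.3 (SE 0.36, adjusted p = 0.116) and 1.58 against L126A-I130A H3.3 (SE 0.36, adjusted p = 0.234). No member passed an adjusted p of 0.05 in either test, in which 6 and 3 of 13201 genes did. C030039L03Rik itself did not pass with WT H3.3 or with the mutant.

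The 6 libraries of H3.3 KO origin were also compared with the 4 of Daxx-/- origin, as the mean of 3 lines against the mean of 2. Strain background, the deleted gene and the history of the lines differ together here and cannot be told apart. Of 90 members 9 were called, 6 higher and 3 lower in the H3.3 KO lines, beside 12.5% of all genes. This share is near the background. At an adjusted p alone, 27 members were higher and 11 lower, in all 42.2%, near the 39.9% of all genes. Over all 13201 genes, 2547 were higher and 2724 lower.
KRAB members account for 26 of the 27 higher ones and for 6 of the 11 lower ones. In all 47.1% of the tested KRAB members passed, and 27.3% of the others. The 68 tested KRAB members had a median of 0.206, with 50 above 0, and the 22 others a median of -0.296, with 4 above 0. The difference between these groups was not tested. Libraries of H3.3 KO origin lay wholly above for 25 members and wholly below for 5, beside 13.2% and 9.82% of all genes. Without replicate 2 of Daxx-/-, the median over all members went from 0.106 to 0.051, beside -0.01 and 0.012 over all genes. Members above 0 went from 54 to 47 of 90. The medians were then 0.164 for KRAB members and -0.374 for the others.

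C030039L03Rik was the most reduced member in the H3.3 KO lines, with a median of 4.91 CPM there and 24.2 CPM in the Daxx-/- lines, whose libraries split by the DAXX transgene (log2 fold change -1.96, SE 0.16, edgeR's adjusted p = 8.23e-05). Zfp786, a KRAB gene of chromosome 6, ranged from 0.943 to 1.46 CPM in the H3.3 KO lines and from 2.04 to 4.91 CPM in the Daxx-/- lines (log2 fold change -1.6, SE 0.3, adjusted p = 0.00345). Its neighbour Zfp956, in which no KRAB box was found, ranged from 3.94 to 7.36 CPM and from 11.4 to 17.8 CPM (log2 fold change -1.19, SE 0.21, adjusted p = 0.0023). In these 3 genes every library of H3.3 KO origin lay below every library of Daxx-/- origin.
Zfp931 was the most raised, from 25.1 to 53.9 CPM in the H3.3 KO lines and from 9.74 to 21.6 CPM in the Daxx-/- lines (log2 fold change 1.38, SE 0.15, adjusted p = 0.000232). Zfp758 and Zfp942 of the chromosome 17 cluster stood at log2 fold changes of 1.36 (SE 0.22, adjusted p = 0.00146) and 1.1 (SE 0.11, adjusted p = 0.000197). Zfp942 ranged from 20.8 to 31.3 CPM and from 11.5 to 12.6 CPM, so that the Daxx-/- lines hardly varied.
Zfp810 of chromosome 9 ranged from 6.84 to 9.36 CPM and from 1.61 to 4.19 CPM (log2 fold change 1.34, SE 0.21, adjusted p = 0.00135). Zfp759 and Zfp712, neighbours on chromosome 13, had log2 fold changes of 1.2 each (adjusted p = 0.0015 and 0.00426). All 6 raised genes encode KRAB proteins and had no overlap between origins.
C030039L03Rik differed by a log2 fold change of -1.05 between the KO lines and of -3.24 between the rescued lines. With only the KO lines compared, 9 members were called (10%, beside 11.7% of all genes), of which 7 were among the 9 above, without Zfp786 and Zfp942. With only the rescued lines (H3.3 KO;WT against Daxx-/-;WT), 8 were called (8.89%, beside 8.45% of all genes), of which 3 were among the 9, C030039L03Rik, Zfp786 and Zfp942. The other 6 kept their direction between the rescued lines. Of these, Zfp931 missed only the 2-fold limit (log2 fold change 0.94, adjusted p = 0.0204), and Zfp759 differed least (0.5, adjusted p = 0.246). The median over all members was 0.252 between the KO lines and -0.059 between the rescued lines.

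**Figure D4:**
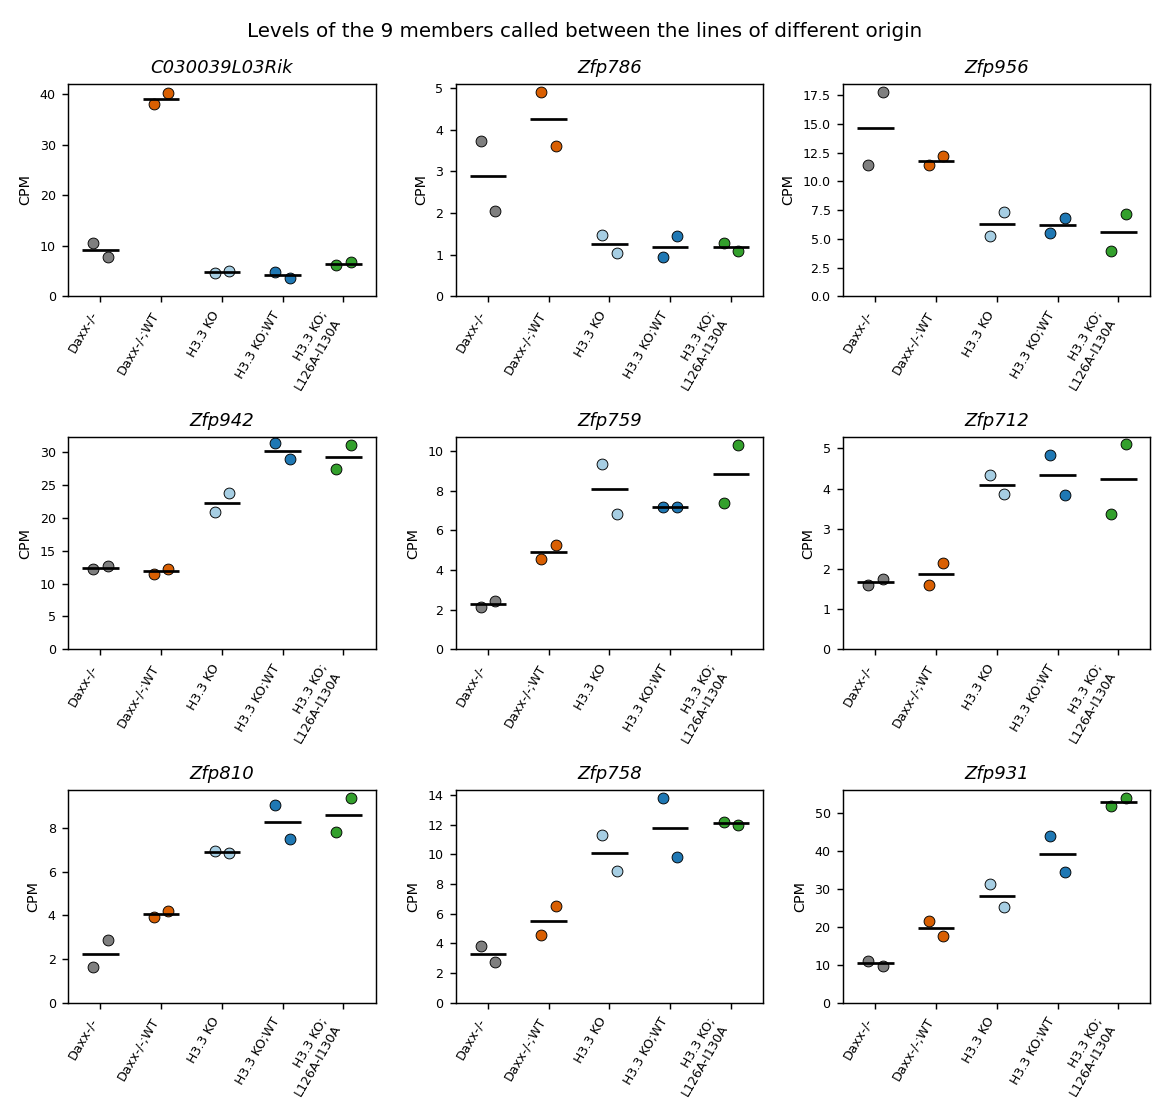
Levels in CPM (vertical axes, from 0) of the 9 members called between lines of H3.3 KO and Daxx-/- origin. Points are libraries and bars the mean of the 2 libraries of a line. The top row holds the 3 genes that were lower in the H3.3 KO lines, with Zfp786 at no more than 1.46 CPM there, and the other rows the 6 genes that were higher.

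Several further members have functions known from other work or high levels. Zfp708, which is known to bind the retroelement RMER19B, ranged from 2.66 to 3.85 CPM in the Daxx-/- lines and from 4.01 to 6.26 CPM in the H3.3 KO lines (log2 fold change 0.66, SE 0.2, adjusted p = 0.0287). Zfp809 ranged from 7.13 to 19.3 CPM and from 20.2 to 42 CPM (log2 fold change 0.96, SE 0.26, adjusted p = 0.0176). Both were higher in the H3.3 KO lines, by less than 2-fold and with no overlap. Zfp819 overlapped between the origins (log2 fold change -0.27, SE 0.31, adjusted p = 0.509).
Zfp750, a regulator of epidermal differentiation, ranged from 4.02 to 10.8 CPM over all libraries, and Zfp787 from 5.5 to 8.42 CPM. Neither passed the adjusted p in any comparison. Zfp710, one of the most abundant members, ranged from 103 to 141 CPM in the H3.3 KO lines and from 197 to 248 CPM in the Daxx-/- lines (log2 fold change -0.91, SE 0.09, adjusted p = 0.000196). Among the others with high levels, Zfp808 and Zfp960 were higher in the H3.3 KO lines (0.93 and 0.6, adjusted p = 0.00128 and 0.00312) and Zfp706 lower with overlap (-0.56, adjusted p = 0.00134), each by less than 2-fold.

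The same values were read by cluster. With DAXX, the median was above 0 in all 12 clusters and every tested member was above 0 in 8 of them, although no clustered member passed the adjusted p and 72 of all 90 members were above 0. Without replicate 2 of Daxx-/-, the median was above 0 in 12 clusters and every member in 4. The highest cluster median was 0.92, in a group of chromosome 7 made of Zfp771, Zfp768, Zfp747 and Zfp764.
Between the origins, 28 of the 55 tested members in clusters passed the adjusted p (50.9%), and 10 of the 35 outside them (28.6%), beside 39.9% of all genes. This difference was not tested. Without replicate 2 of Daxx-/-, the cluster median was above 0 in 7 of 12 clusters, against 8 with all lines. With only the rescued lines, 11 of 55 in clusters passed, and 18 of all 90 members. The cluster median was then above 0 in 6 of 12 clusters. With only the KO lines, 18 of 55 in clusters passed, and 26 of all 90 members. The share of all genes past the adjusted p was not counted in these smaller comparisons. At an unadjusted p under 0.05, all genes also fell, from 49.5% with all lines to 34.5% (rescued lines) and 38% (KO lines). The members stood at 50%, 41.1% and 42.2%. A drop particular to clusters cannot be read from these counts. With all lines, all 3 members of the chromosome 13 cluster of Zfp808, Zfp935 and Zfp934 passed, at log2 fold changes of 0.76 to 0.93. In the cluster of 6 from Zfp712 to Zfp738, 5 passed, and all were above 0. In the chromosome 17 cluster of 10, 8 passed and 9 were above 0, with a median of 0.71. With only the rescued lines, 1, 1 and 4 members of these clusters passed. With all lines, no member passed in the chromosome 7 clusters, or in the chromosome 8 cluster of Zfp709, Zfp882 and Zfp961.
The chromosome 6 cluster from Zfp786 to Zfp775 went the other way, with 5 of 5 below 0 and 4 past the adjusted p. With only the rescued lines, 2 of its members passed. Members of a cluster share sequence and are not independent measurements.

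**Figure D5:**
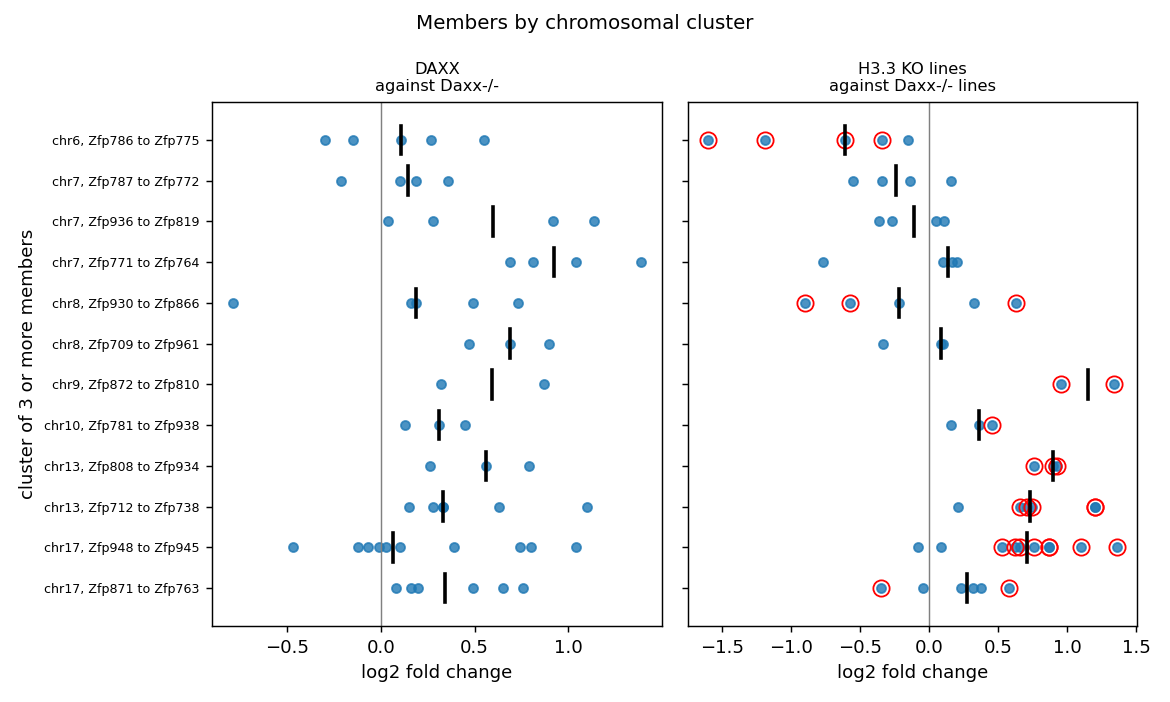
Log2 fold change (horizontal axes) of members in the 12 chromosomal clusters (rows), with DAXX (left) and between lines of H3.3 KO and Daxx-/- origin (right). Points are members, black bars cluster medians, and red rings mark an adjusted p under 0.05. The chromosome 17 cluster that starts at Zfp948 has its bar at 0.07 on the left and 0.71 on the right.

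A list of 20 tested genes, of KAP1, its co-repressor partners and related genes, was also read. It includes the zinc finger gene Zfp57 and also Atrx, whose protein the paper did not find associated with SETDB1 and KAP1. KAP1 is a partner of KRAB proteins, and no KRAB box was found in 24 of the 96 members. With DAXX 1 of the 20 was called (5%, beside 1.08% of all genes). It was Daxx itself (log2 fold change 1.41, SE 0.18, edgeR's adjusted p = 0.0212), which the transgene can supply. None of the 20 was called in the 3 H3.3 comparisons, beside 0.25%, 0.788% and 0.515% of all genes. Between the origins none was called either, beside 12.5% of all genes. There 8 were higher and 4 lower at an adjusted p alone, in all 60% beside 39.9% of all genes.
Trim28, which encodes KAP1, measured 1890 and 1270 CPM in Daxx-/- and 2290 and 1920 CPM with DAXX (log2 fold change 0.41, SE 0.25, adjusted p = 0.359). Setdb1 measured 113 ± 18.5 CPM (SD, n = 2) without and 162 ± 12 CPM (SD, n = 2) with DAXX (log2 fold change 0.51, SE 0.18, adjusted p = 0.161). Replicate 2 of Daxx-/- was the lower library for both genes, as it was for many members. Libraries with DAXX lay wholly above for 9 of the 20 (45%) and wholly below for 4 (20%), beside 24.6% and 23.1% of all genes. Among the 4 were Atf7ip (log2 fold change -0.58, SE 0.14, edgeR's adjusted p = 0.0755) and 2810474O19Rik (-0.53, SE 0.14, adjusted p = 0.0835). Of the 20, 13 were above 0 and 7 below. At an unadjusted p under 0.05, 2 were higher and 3 lower, in all 25% beside 21.8% of all genes.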

How the data were processed

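PolyA RNA-Seq of 10 libraries was analysed, grouped by the line in their labels. These write L126A-L130A for the mutant that the paper writes as L126A-I130A. The authors aligned reads with Bowtie and ran RSEM. The submitters' processing notes name mm9, and tool versions are not given in the sources used here. The authors deposited RSEM expected counts per gene, although the table is named TPM. Counts were rounded and tested with edgeR 4.0.16 in R 4.3.3, over the 13201 genes that reached 1 CPM in 2 or more libraries. Median-of-ratios factors (0.936 to 1.04) were used, and the 10 libraries shared a quasi-likelihood fit whose dispersion followed abundance. P-values were Benjamini-Hochberg adjusted over all genes tested, and a call took a 2-fold difference besides an adjusted p below 0.05. Each SE was derived from the log2 fold change and its F statistic. P-values measure the spread between replicates, 2 per line.

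Levels in CPM use the total of all genes without scaling factors. A KRAB box was counted where at least 13 of 17 consensus positions of its A box matched a translated GENCODE transcript, and fingers by spacing of cysteines and histidines. Of 21068 genes without fingers, 20 passed this KRAB rule. How many divergent boxes it misses was not tested. Zfp746 and Zfp956 matched 10 and 9 positions and were counted as without a KRAB box, whose other members matched at most 7.

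Members were named if called, if among the 6 highest in mean CPM, the 2 largest non-overlapping rises or falls of a transgene comparison or a short list of characterised members, or if at the edge of the filter. Zfp740, Zfp936 and cluster examples were chosen after their values were seen. The members and lists were chosen with earlier results of these data known. Alternatives used TMM factors, library size, other filters, DESeq2 1.42.0, limma 3.58.1, a replicate block, other spreads and left-out libraries. The fits were tested on simulated data. Figures and annotation used Python 3.11.15.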

Additional observations from a re-analysis of the deposited data

How the results depend on the processing

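Of 500 alternative values for the named members in the comparisons that named them, 473 kept their direction and side of the threshold. A further 13 lost a call, 14 gained one and 0 changed sign. These members were named for a call or a large difference, each without overlap. A change of sign was therefore hardly possible, and the 0 is not support. Many that kept their side were uncalled members that stayed uncalled. Members called with DAXX numbered 1 in the reported fit, 4 with DESeq2 (C030039L03Rik, Zfp759, Zfp760 and Zfp764), 2 at an adjusted p alone, 0 when the comparison was fitted alone, and 0 to 11 with single libraries left out: 11 without Daxx-/- replicate 1 and 0 without either Daxx-/-;WT library. With WT H3.3, 0 became 1 in DESeq2 and when fitted alone, and stayed 0 without any single library. With L126A-I130A H3.3 against H3.3 KO, 0 became 1 with no filter, in DESeq2 and in both limma fits, and ranged from 0 to 1 without single libraries. Against WT H3.3 the mutant's 0 became 1 in DESeq2, and was 0 without any single library. Between the origins, 9 became 38 at an adjusted p alone and ranged from 9 to 13 without single libraries. Fits without a library of a line assume that the lone library varies like the other lines.

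The labels tie the replicate numbers to no batch or day. Deviations of same-numbered libraries correlated between -0.06 and 0.53, above 0.1 for 7 of 10 pairs of lines but not for H3.3 KO with 3 of the other lines, so the numbers were not taken to pair all libraries. With a replicate block, 4 members were called with DAXX, 0 with WT H3.3 and 1 (Zfp711) with L126A-I130A H3.3. It called 1 (Zfp772) for the mutant against WT H3.3, and 9 between the origins. Over all 13201 genes the block called 621, 105, 461, 234 and 1812 in these comparisons.

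The members' median log2 fold change, an alternative chosen after seeing the data, ranged without single libraries from 0.167 to 0.517 with DAXX, from -0.002 to 0.065 with WT H3.3, from 0.135 to 0.228 with the mutant, from 0.029 to 0.135 for the mutant against WT H3.3, and from 0.051 to 0.215 between the origins. Between the origins it was 0.252 for the KO lines alone and -0.059 for the rescued lines alone. Calls over all genes with DAXX numbered 143 in the reported fit, 621 with the block, 531 with DESeq2, 1 when fitted alone and 1 to 1074 without single libraries. The causes were not tested. With 2 libraries a line, and levels under 10 CPM for 31 of the 90 tested members, smaller changes could not be told from the spread. The origin comparison uses all libraries, so fitting it alone is the same fit.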
